A study of Mus musculus with 6 samples.

Results

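The genes of MHC class II antigen presentation were described in the liver of Balb/cBy and Balb/c mice fed a high-fat diet. The 10 genes were given by name: H2-Aa, H2-Ab1, H2-Eb1, H2-DMa, H2-DMb1, H2-Oa, H2-Ob, Cd74, Ciita and Ctss. The annotation names 23981 genes in all. All 10 were found among the 41345 probe sets of the array, on 11 of them, a probe set being a group of probes summarized to 1 value. H2-Oa had 2 probe sets and the other genes 1 each, and where there were 2 the one with the higher mean was used. Cd74 was measured only on a probe set whose annotation also names the microRNA gene Mir5107, so its values may include signal of that transcript. The other 9 genes had a probe set of their own.

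Livers of 3 Balb/cBy males, which the titles mark KD, were compared with those of 3 Balb/c males, marked WT. Every mouse was 20 weeks old and had eaten a diet with 58% of its energy as fat for 12 weeks, starting at 8 weeks of age. Balb/cBy is a substrain closely related to Balb/c, and no label says which gene the letters KD refer to. The substrain is known to carry a deletion in Acads, a mitochondrial acyl-CoA dehydrogenase gene. Acads read 10.60, 10.78 and 10.93 in Balb/cBy livers, against 11.53, 11.46 and 11.28 in Balb/c livers. It differed by -0.65 ± 0.12 (SE) between the groups, and limma's adjusted p was 0.582. Values are log2 RMA values, so a difference of 1 is a 2-fold change. The replicates of a group are biological ones per the titles. Each array is read here as 1 mouse, which the titles do not state.

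MHC class II molecules display peptides from endosomes to CD4+ T cells. H2-Aa and H2-Ab1 encode the chains of I-A, and H2-Eb1 encodes the β chain of I-E, whose α chain comes from H2-Ea. Cd74 encodes the invariant chain, which fills the groove of new class II molecules until cathepsin S, the product of Ctss, cuts it down. H2-DM, made by H2-DMa and H2-DMb1, then exchanges the remaining fragment for peptide, and H2-O, made by H2-Oa and H2-Ob, holds H2-DM back. Ciita encodes the coactivator that switches these H2 genes and Cd74 on in dendritic cells, B cells and macrophages, and interferon gamma induces it in many other cells. In the liver, Kupffer cells, dendritic cells and B cells are known class II carriers.

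The factors that recruit the Ciita protein bind the X and Y boxes, short elements shortly before the start of class II genes. RefSeq promoter windows of GRCm38.p6, the genome of C57BL/6J and not of a Balb substrain, were used for 7 of the 10 genes: Ctss, H2-Aa, H2-DMa, H2-DMb1, H2-Eb1, H2-Oa and H2-Ob. No window of H2-Ab1, Cd74 or Ciita was searched. Each window runs from 250 bases before the annotated start to 50 after it. The letters searched, on both strands, were TGATTGG for the Y box, AGNAACNNATGATGC for the X box with its X2 part, TGACGTCA for a palindromic X2 box and 2 copies of GAAA with 2 bases between them for the core of an interferon-stimulated response element. The X letters are those shared by H2-Eb1, H2-DMb1 and H2-Ob, so their match in these 3 is by construction. The Y box letters lay in 5 of the 7 genes, and in 7.82% of all 32851 windows. The X box letters lay in 4 windows of the whole table (0.0122%), those 3 and that of Klhl34. The stretches that hold X, X2 or Y box letters are shown because these boxes are the known point of shared control of class II genes. That of Ctss is shown for its response element core alone, as it held no X, X2 or Y box letters. Matched letters are in capitals, and each stretch is written 5′ to 3′ on the strand of its gene.
H2-Aa (chr17:34287844-34287943, minus strand): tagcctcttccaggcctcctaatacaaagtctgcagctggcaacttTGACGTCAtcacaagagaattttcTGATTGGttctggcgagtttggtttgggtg
H2-Eb1 (chr17:34305747-34305846, plus strand): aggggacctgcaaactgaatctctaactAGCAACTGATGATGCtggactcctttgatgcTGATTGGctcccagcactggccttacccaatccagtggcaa
H2-DMb1 (chr17:34153071-34153170, plus strand): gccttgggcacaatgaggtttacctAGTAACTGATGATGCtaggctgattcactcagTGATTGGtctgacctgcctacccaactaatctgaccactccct
H2-Ob (chr17:34238785-34238884, plus strand): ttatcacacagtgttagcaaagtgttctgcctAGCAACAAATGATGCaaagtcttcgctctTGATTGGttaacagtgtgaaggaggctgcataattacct
H2-Oa (chr17:34092259-34092358, plus strand): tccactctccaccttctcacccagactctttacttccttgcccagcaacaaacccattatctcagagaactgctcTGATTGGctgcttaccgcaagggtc
Ctss (chr3:95526686-95526785, plus strand): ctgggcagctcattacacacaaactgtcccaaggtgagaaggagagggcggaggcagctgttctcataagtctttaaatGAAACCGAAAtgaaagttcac

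In these stretches 16 bases separated the X and Y letters of H2-Eb1, 17 those of H2-DMb1 and 14 those of H2-Ob. H2-Aa held the palindromic X2 letters instead, with 16 bases between them and its Y box; these letters occurred in 1.79% of all windows. The capitals of Ctss mark the response element core, found in 3.44% of all windows. The windows of H2-DMa held none of the 4 sets of letters. Only exact matches to the letters were sought, so a box with other letters would have been missed.

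None of the 10 class II genes differed between the substrains beyond the spread between animals. In limma's test over all probe sets with Benjamini-Hochberg adjustment, 0 of the 10 passed an adjusted p of 0.05, and the members' adjusted p was 0.999 in each case. Over all 41345 probe sets the share that passed was 0%. At an unadjusted p under 0.05 the count was also 0 of 10, beside 3.64% of all probe sets, and the smallest unadjusted p of a member was 0.0905. The values of the groups overlapped in all 10 genes, while they did not overlap in 7.92% of all probe sets. In bulk liver, a change in the number of cells that carry class II and a change in RNA per cell could not be told apart.

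Of the 10 genes, 9 had a lower mean and 1, Ctss, a higher mean in Balb/cBy livers. The median difference was -0.19, against -0.0035 over all probe sets, 51.1% of which had a difference below 0. This lean moved with the array left out. Without Balb/c replicate 2, the median was 0.03 and 4 of the 10 were lower. That array was the highest for 8 of the 10, so leaving it out had to lower their Balb/c means. Without Balb/cBy replicate 1, the lowest array for 4 of the 10, the median was -0.17 and 8 were lower. Without Balb/c replicate 3, by contrast, the median was -0.33 and all 10 were lower.

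**Figure D1:**
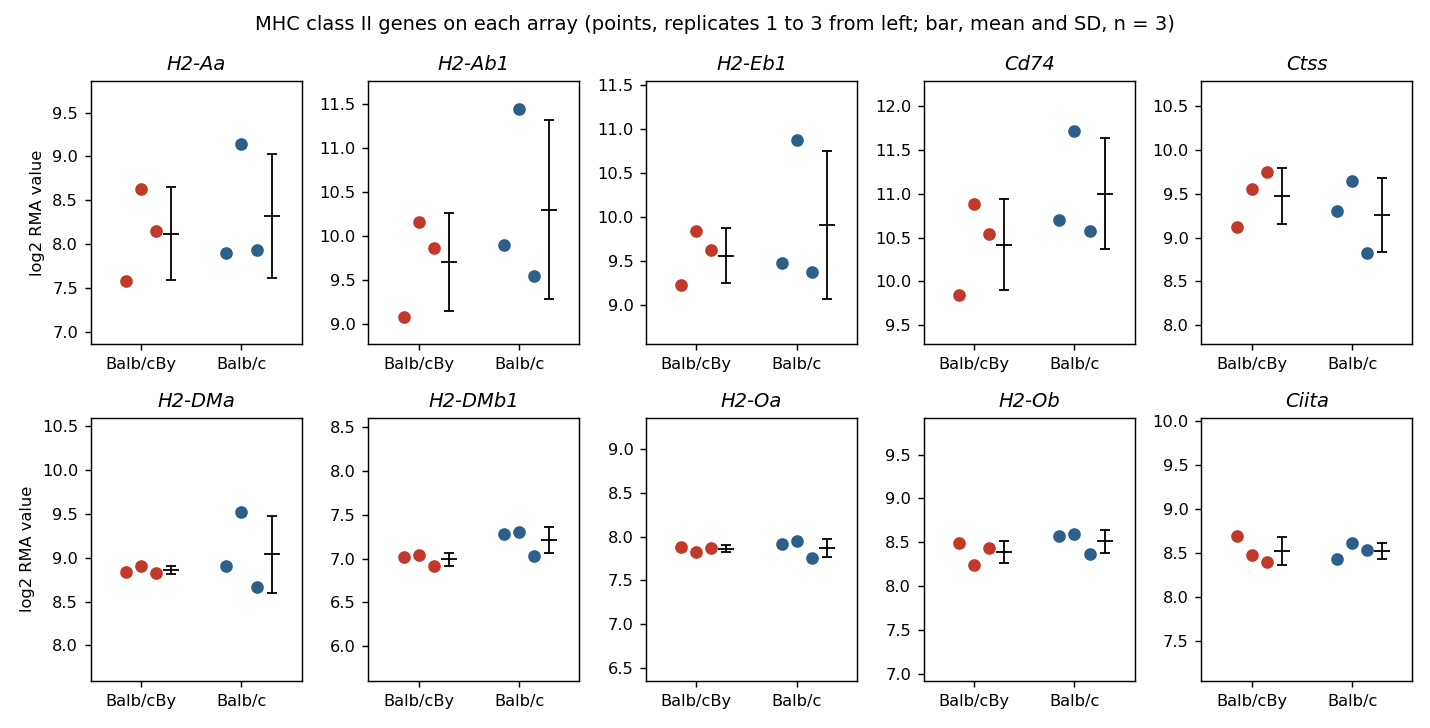
Log2 RMA value of each class II gene on each array (vertical axes span 3 log2 units in every panel), Balb/cBy in red and Balb/c in blue, with the mean and SD of each group as a black bar (n = 3). In the upper row Balb/c replicate 2 stands highest for H2-Aa, H2-Ab1, H2-Eb1 and Cd74, and the groups overlap in every panel.

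H2-Ab1, the I-A β chain, varied most of the 10 genes. It read 9.08, 10.16 and 9.86 in Balb/cBy livers, against 9.90, 11.45 and 9.54 in Balb/c livers. Its mean was 9.70 ± 0.56 in Balb/cBy and 10.30 ± 1.02 in Balb/c (SD, n = 3 each). The range over the 6 animals, 2.38 on the log2 scale or 5.19-fold, lay mostly within the groups: Balb/cBy replicate 1 was the lowest array and Balb/c replicate 2 the highest, and the remaining 4 arrays fell between 9.54 and 10.16. H2-Ab1 thus differed by -0.60 ± 0.51 (SE) with a 95% interval of -1.81 to 0.62, which is 0.285 to 1.54 times the level of Balb/c. Without Balb/c replicate 2 it was -0.02.

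H2-Aa, the I-A α chain, followed the same order of extremes. It read 7.58, 8.63 and 8.15 in Balb/cBy livers, against 7.90, 9.14 and 7.93 in Balb/c livers. Balb/cBy replicate 1 was again lowest and Balb/c replicate 2 highest, with Balb/cBy replicate 2 above the other Balb/c arrays. The difference was -0.21 ± 0.39 (SE; 95% interval -1.14 to 0.72), and 0.20, the opposite direction, without Balb/c replicate 2.

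H2-Eb1, the I-E β chain, read 9.22, 9.84 and 9.62 in Balb/cBy livers, against 9.48, 10.88 and 9.37 in Balb/c livers. Balb/cBy replicate 1 was lowest and Balb/c replicate 2 highest here as well, with the other 4 arrays between 9.37 and 9.84. The difference was -0.35 ± 0.40 (SE; 95% interval -1.30 to 0.60), and 0.14 without Balb/c replicate 2.

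Cd74, the invariant chain, read 9.85, 10.88 and 10.54 in Balb/cBy livers, against 10.70, 11.72 and 10.57 in Balb/c livers. Balb/cBy replicate 1 and Balb/c replicate 2 were once more the extremes, and Balb/cBy replicate 2 exceeded the other Balb/c arrays. The difference was -0.57 ± 0.37 (SE; 95% interval -1.44 to 0.30), and -0.21 without Balb/c replicate 2. The within-group SD of these 4 genes, 0.58 to 0.82, exceeded that of 97.3% to 99.2% of all probe sets, whose median was 0.16.

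Ctss, the protease that trims the invariant chain, had another order of animals than H2-Aa, H2-Ab1, H2-Eb1 and Cd74. It read 9.12, 9.55 and 9.75 in Balb/cBy livers, against 9.30, 9.65 and 8.82 in Balb/c livers. Here Balb/cBy replicate 3 was highest and Balb/c replicate 3 lowest. The difference was 0.21 ± 0.24 (SE; 95% interval -0.37 to 0.79), and it was -0.01 without Balb/c replicate 3.

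The subunits of the peptide editor H2-DM differed in how far they followed the I-A and I-E chains. H2-DMa, its α subunit, read 8.84, 8.91 and 8.83 in Balb/cBy livers, against 8.91, 9.52 and 8.67 in Balb/c livers. Balb/c replicate 2 stood above the other 5 arrays, which spanned 8.67 to 8.91. The difference was -0.17 ± 0.21 (SE; 95% interval -0.67 to 0.32), and 0.07 without Balb/c replicate 2.

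H2-DMb1, the β subunit, read 7.02, 7.04 and 6.91 in Balb/cBy livers, against 7.28, 7.30 and 7.03 in Balb/c livers. It came closest of the 10 genes to a separation of the groups, with Balb/c replicate 3 between the higher Balb/cBy arrays. The difference was -0.21 ± 0.11 (SE; 95% interval -0.47 to 0.04; unadjusted p = 0.0905, adjusted p = 0.999 in limma). It was -0.17 without Balb/c replicate 2. The gene lay under 8.01, the 95th percentile of the mean values of 1108 probe sets for olfactory receptors, which liver is not known to use; values under it may not be told from background.

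H2-O, the inhibitor of H2-DM, showed little spread. H2-Oa, its α subunit, read 7.88, 7.82 and 7.87 in Balb/cBy livers, against 7.91, 7.95 and 7.76 in Balb/c livers, all under the olfactory receptor level. Its difference was -0.01 ± 0.09 (SE; 95% interval -0.24 to 0.21), a value that was 0.0033 with renewed quantile normalization and 0.0034 with arrays centred on the median. Its other probe set, shared with the lncRNA gene BC051537, gave -0.10 ± 0.10 (SE).

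H2-Ob, the β subunit, read 8.49, 8.24 and 8.43 in Balb/cBy livers, against 8.57, 8.60 and 8.37 in Balb/c livers. Its arrays covered only 0.36 on the log2 scale, with Balb/cBy replicate 2 lowest. The difference was -0.13 ± 0.11 (SE; 95% interval -0.40 to 0.14).

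Ciita, the coactivator of the family, read 8.69, 8.47 and 8.39 in Balb/cBy livers, against 8.43, 8.61 and 8.53 in Balb/c livers. Balb/cBy replicate 1, the array with the lowest H2-Ab1, H2-Aa, H2-Eb1 and Cd74, had the highest Ciita value, and Balb/c replicate 2 the next. The range over 6 arrays was 0.30, against 1.56 to 2.38 for those 4 genes. The within-group SD of Ciita was 0.13, under the median of 0.16 over all probe sets, so its order of arrays may not be told from measurement noise. Ciita differed by -0.01 ± 0.11 (SE), with a 95% interval of -0.28 to 0.26 or 0.825 to 1.20 times the level of Balb/c, and by 0.01 with arrays centred on the median.

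**Figure D2:**
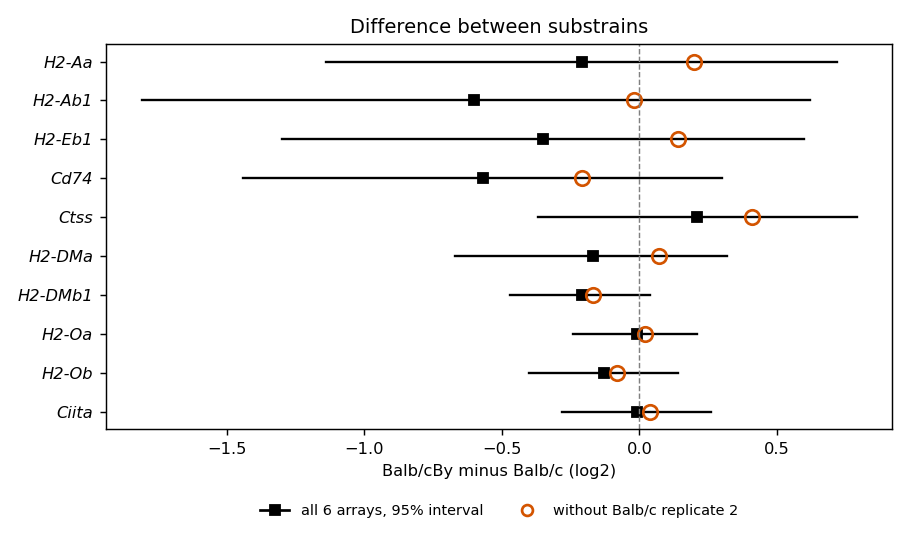
Log2 difference of each class II gene, Balb/cBy minus Balb/c (squares, with limma's 95% interval), and the same difference without Balb/c replicate 2 (open circles). Every interval includes 0, and the circles of H2-Aa, H2-Eb1, H2-DMa, H2-Oa and Ciita lie on the other side of 0 from their squares.

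Balb/c replicate 2 was the highest of the 6 arrays for 8 of the 10 genes, all but Ciita and Ctss, while it was the highest for 19.6% of all probe sets. Balb/cBy replicate 1 was the lowest for 4 of the 10, namely H2-Aa, H2-Ab1, H2-Eb1 and Cd74, and for 13.7% of all probe sets. Averaged over these 4 genes and centred on the 6-array mean, the level was -0.73, 0.21 and -0.12 in Balb/cBy livers, against -0.17, 1.13 and -0.31 in Balb/c livers. The lowest and the highest animal of each substrain stood further apart than the group means did, with 1 animal away from the other 2 in each group.

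H2-Ea, the I-E α chain, had the profile nearest to this average among 20626 probe sets with 1 named gene, predicted genes and the 4 genes themselves left out. The measure was the mean absolute distance between the centred log2 values over the 6 arrays. It was 0.11 for H2-Ea, against a median of 0.46 over all probe sets. H2-Ea read 9.52, 10.47 and 10.23 in Balb/cBy livers, against 10.29, 11.35 and 10.27 in Balb/c livers, with a difference of -0.56 ± 0.36 (SE). The gene is a transcribed pseudogene in the C57BL/6J annotation but is known to be active in mice of the d haplotype of H2, which Balb/c and Balb/cBy both carry; how the array's probes match that haplotype was not examined. The next nearest were the small nucleolar RNA gene Snora30 at 0.14, the microRNA gene Mir467d at 0.18, Rgs1, a regulator of G protein signalling, at 0.19 and Snhg17, a host gene of small nucleolar RNAs, at 0.21. Rgs1 and Mir467d lay under the olfactory receptor level.

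Of the other members, H2-DMa was the nearest to the average profile, with a distance of 0.27 and 0.15% of all probe sets nearer. Ctss followed at 0.37, with 3.97% of all probe sets nearer, and H2-DMb1 at 0.42, with 22.94% nearer. Ciita and H2-Oa were at 0.44 and H2-Ob at 0.47, close to the median of all probe sets. The log2 values were not scaled for this measure, so a gene with little range lands near that median whatever its order of arrays. For H2-DMb1, Ciita, H2-Oa and H2-Ob the distance therefore does not tell whether they follow the average profile at a smaller range.

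**Figure D3:**
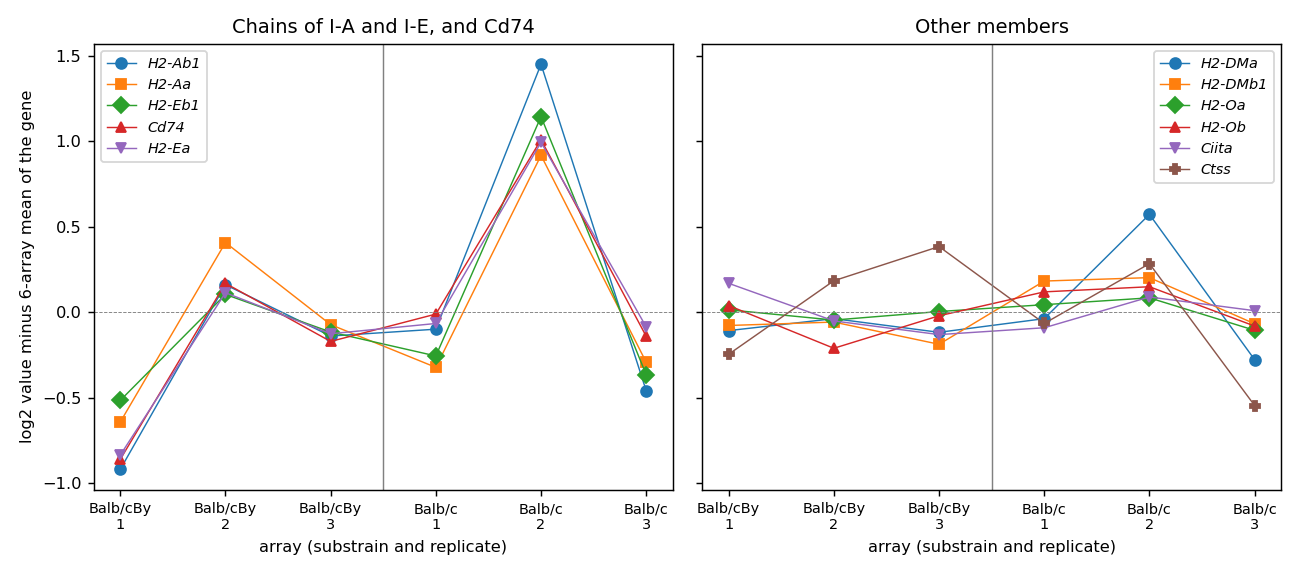
Log2 value of each gene minus its own 6-array mean, by array (Balb/cBy left of the vertical line, Balb/c right of it; lines join the values of a gene and imply no order). The chains of I-A and I-E and Cd74 share a low value in Balb/cBy replicate 1 and a high value in Balb/c replicate 2, while H2-Oa, H2-Ob and Ciita stay within a range of 0.36.

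The wider class II pathway gave 24 further genes: other class II chains, the RFX, NF-Y and CREB factors that bind the X and Y boxes, endosomal proteases, the thiol reductase Ifi30, the ubiquitin ligase Marchf1 and costimulatory molecules. Of these, 16 had a higher and 8 a lower mean in Balb/cBy livers, with a median difference of 0.03. None passed the adjusted test, and none had an unadjusted p under 0.05, beside 3.64% of all probe sets. Balb/c replicate 2 was the highest array for 1 of the 24, H2-Ea. The smallest unadjusted p belonged to Cst3, cystatin C, an inhibitor of cathepsins, at 0.19 ± 0.10 (SE). It was the 1 gene of the 24 whose groups did not overlap, a share no higher than the 7.92% of all probe sets. Lgmn, the endosomal protease legumain, differed by 0.34 ± 0.21 and Ctsl, cathepsin L, by 0.19 ± 0.14 (SE).

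Levels of cell type markers and of the interferon gamma response were set beside these values, and no gene of the lists passed the adjusted test. The interferon gamma list, with 23 of 24 genes measured, had 15 higher and 8 lower genes in Balb/cBy livers and a median of 0.04. Cxcl9, a chemokine induced by interferon gamma, read 8.85, 9.59 and 9.41 in Balb/cBy livers, against 11.47, 10.38 and 9.75 in Balb/c livers. Its groups did not overlap and its highest array was Balb/c replicate 1, not Balb/c replicate 2 (difference -1.25 ± 0.42 SE, adjusted p = 0.999 in limma). Igtp, an interferon-induced GTPase, went the other way at 0.51 ± 0.21 (SE). Peptide supply genes for MHC class I, some of which lie between class II genes on chromosome 17, had 7 higher and 7 lower of 14 measured, with Calr, calreticulin, at 0.22 ± 0.10 and Pdia3, a disulfide isomerase, at 0.26 ± 0.19 (SE).

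Kupffer cell markers varied most between arrays among the marker lists. Their mean level ran from 9.55 to 9.98 in Balb/cBy livers, against 9.30 to 10.08 in Balb/c livers, and all 12 were measured, 11 of them above the olfactory receptor level. Balb/c replicate 2 had the highest mean, and 7 of the 12 markers were highest there. The lowest mean was 9.30 in Balb/c replicate 3, and the next lowest 9.55 in Balb/cBy replicate 1. The class II genes also averaged highest in Balb/c replicate 2 and lowest in those arrays, in the opposite order (8.66 and 8.58). Of the 12, 7 were higher and 5 lower in Balb/cBy, with a median of 0.06. Vsig4, a complement receptor, differed by 0.41 ± 0.17 and Cd68, a lysosomal glycoprotein, by 0.43 ± 0.25 (SE). Among the lower ones, Adgre1 differed by -0.37 ± 0.32 and Marco, under the olfactory receptor level, by -0.24 ± 0.16 (SE). Both were lowest in Balb/cBy replicate 1 and highest in Balb/c replicate 2. Their part in the class II values was not tested.

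B cell markers averaged 7.40 to 7.52 in Balb/cBy livers, against 7.48 to 7.60 in Balb/c livers, with 9 of 10 measured and 4 above the olfactory receptor level. Of the 9, 7 were lower in Balb/cBy, with a median of -0.06. Ms4a1, which encodes CD20, and Cd79b, a chain of the B cell receptor complex, each differed by -0.27, with SEs of 0.09 and 0.10. The groups did not overlap in 4 of the 9, against 7.92% of all probe sets. Lower in Balb/cBy were Ms4a1, Cd79b and Cd79a, a direction that 3.57% of all probe sets share, and higher was Spib, a B cell transcription factor, at 0.24 ± 0.11 (SE). Of these 4 only Cd79b had a 6-array mean above the olfactory receptor level. Balb/c replicate 2 had the highest B cell mean. Dendritic cell markers averaged 8.06 to 8.20 in Balb/cBy livers, against 8.15 to 8.30 in Balb/c livers, with 9 of 10 lower and a median of -0.07. Of these 10, 4 lay above the olfactory receptor level, and their mean too was highest in Balb/c replicate 2. Clec10a, a lectin, differed by -0.22 ± 0.14 and Flt3, a growth factor receptor, by -0.11 ± 0.10 (SE). Clec10a had a 6-array mean of 7.22, under the olfactory receptor level, and Flt3 one of 8.02, just above it. The part of B cells and dendritic cells in the class II values was not tested.

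Recruited macrophage markers averaged 8.48 to 8.58 in Balb/cBy livers, against 8.32 to 8.36 in Balb/c livers (9 of 10 measured, 5 of them above the olfactory receptor level, 7 higher, median 0.11). Among them Gpnmb, a lysosomal glycoprotein, and Cd9, a tetraspanin, each differed by 0.36, with SEs of 0.10 and 0.11, and Gpnmb lay under that level. Plasma cells, which are known to lose class II, were represented by 8 markers, which averaged 8.62 to 8.70 in Balb/cBy livers, against 8.30 to 8.49 in Balb/c livers (5 higher, median 0.07, 4 above the olfactory receptor level). Jchain, the joining chain of secreted antibodies, differed by 1.12 ± 0.30 and Xbp1, a factor of secretory cells, by 0.37 ± 0.14 (SE). Jchain had a 6-array mean under that level, reading 7.44, 8.31 and 8.70 in Balb/cBy livers, against 7.09, 6.91 and 7.10 in Balb/c livers. Mzb1, Irf4 and Tnfrsf17 had means under it too. Whether the values of this list come from plasma cells or from other cells of the liver was not tested.

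T and NK cell markers averaged 7.46 to 7.56 in Balb/cBy livers, against 7.57 to 7.68 in Balb/c livers (10 of 11 measured, 4 above the olfactory receptor level, 9 lower, median -0.10), again highest in Balb/c replicate 2. Nkg7, a granule protein, differed by -0.24 ± 0.09 and Cd3d, a chain of the T cell receptor complex, by -0.22 ± 0.14 (SE). Cd3d had a 6-array mean under the olfactory receptor level. Markers of leukocytes at large averaged 8.63 to 8.82 in Balb/cBy livers, against 8.60 to 8.82 in Balb/c livers (8 measured, median 0.03). Ptprc, which encodes CD45, differed by -0.13 ± 0.10 and Cd53, a tetraspanin, by 0.16 ± 0.18 (SE). Sinusoidal endothelial markers averaged 9.71 to 10.01 in Balb/cBy livers, against 9.80 to 9.94 in Balb/c livers (8 measured, median -0.02). Fcgr2b, an Fc receptor, differed by -0.30 ± 0.15 and Kdr, a growth factor receptor, by -0.23 ± 0.14 (SE). Hepatocyte markers, which define the labelled tissue, averaged between 13.07 and 13.28 on every array, with 9 of 10 measured, all 9 above the olfactory receptor level, and a median difference of 0.02. Of these Serpina1a, a serum protease inhibitor, differed by 0.55 ± 0.22 and Hnf4a, a hepatocyte transcription factor, by 0.17 ± 0.12 (SE).

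**Figure D4:**
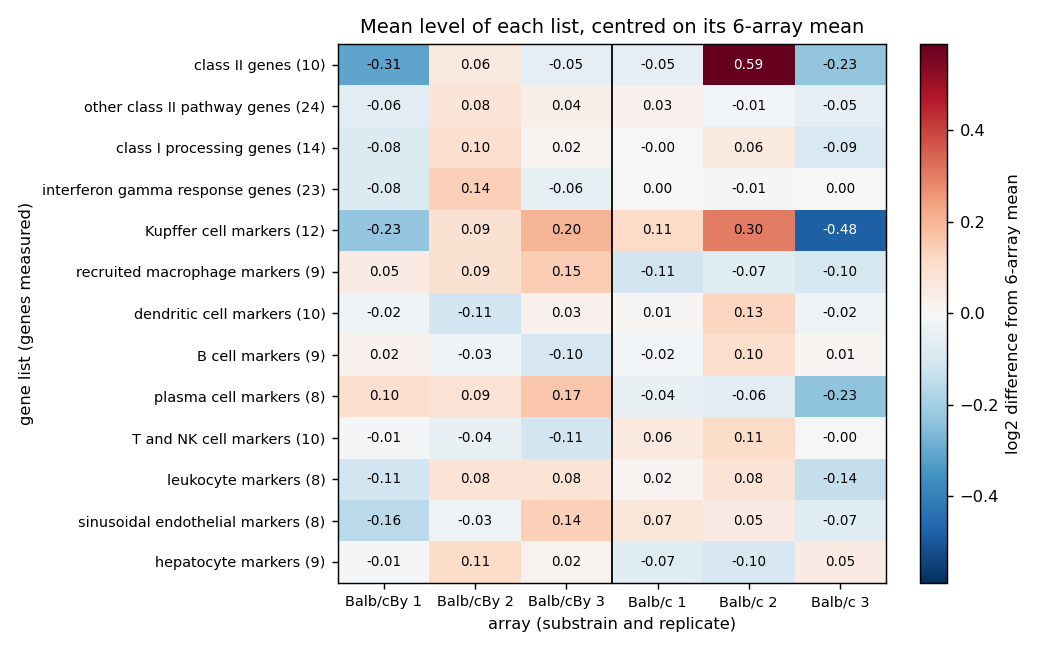
Mean log2 level of each gene list on each array, minus the 6-array mean of the list (colour and printed value; Balb/cBy arrays left of the line, Balb/c arrays right of it; genes measured in parentheses). The class II genes averaged 8.58, 8.95 and 8.84 on the Balb/cBy arrays, against 8.84, 9.48 and 8.66 on the Balb/c arrays. Only Kupffer cell markers show shifts of like size. Balb/c replicate 2 is highest in both lists, and Balb/cBy replicate 1 and Balb/c replicate 3 are lowest in both, in opposite order.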

How the data were processed

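Liver total RNA of male mice, 3 Balb/cBy and 3 Balb/c samples, was hybridized to Affymetrix arrays, read here as 1 per mouse, from 500 ng per the labels' protocols. The deposited log2 values were made by the authors with RMA (background correction, quantile normalization and summary of probes), per the submitters' processing notes. Software version and genome build: not given in the sources used here. Values ran from 3.31 to 14.84, with array medians between 7.66 and 7.74. RMA draws low values together, which makes differences of dim genes appear smaller. The number of arrays limits the precision, and no detection measure was used.

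All 41345 probe sets were fitted with limma 3.58.1 in R 4.3.3, with group as the single term and empirical Bayes moderation. Tests were two-sided, adjusted by Benjamini-Hochberg over all probe sets, with a threshold of 0.05 and no p over the class II genes alone. The annotation gives 1 symbol to 23521 probe sets, several to 1814 and none to 16010. The fit was tested on simulated data. The class II genes, the other lists and the promoter letters were chosen with earlier results of these data known. The text names all 10 class II genes and the 5 nearest profiles (no predicted genes). Of the pathway genes it names the 4, and of each other list the 2, with the smallest unadjusted p. Outside that rule it names Acads, Adgre1, Marco, Cd79a, Spib, Mzb1, Irf4, Tnfrsf17, Ifi30, Marchf1 and Klhl34, chosen after their values were seen. Alternatives were other probe set choices, moderation, array weights, a replicate block, other normalizations and leaving out arrays.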

Additional observations from a re-analysis of the deposited data

How the results depend on the processing

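Over the 17 alternatives run, 0 of the class II genes passed the adjusted test, with a smallest adjusted p of 0.567, and their median difference ran from -0.33 to 0.03. At an unadjusted p under 0.05 the count was 1 in place of 0 with array weights (H2-DMb1, limma's adjusted p = 0.804), with the replicate block (Cd74, adjusted p = 1.0) and without the 2 arrays of lowest weight (H2-DMb1, adjusted p = 0.567), an alternative chosen after the data were seen. It ran from 0 to 1 when single arrays were left out; the 1 was H2-DMb1 without Balb/c replicate 3 (limma's adjusted p = 0.909). The count of all probe sets past the adjusted threshold ran from 0 to 1 in the same fits, the 1 being without Balb/c replicate 3. The cause was not tested.

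When single arrays were left out, the differences ran from -0.46 to 0.20 for H2-Aa, from -0.97 to -0.02 for H2-Ab1, from -0.62 to 0.14 for H2-Eb1, from -0.80 to -0.21 for Cd74, from -0.36 to 0.07 for H2-DMa, from -0.30 to -0.17 for H2-DMb1, from -0.07 to 0.02 for H2-Oa, from -0.20 to -0.05 for H2-Ob, from -0.09 to 0.06 for Ciita and from -0.01 to 0.41 for Ctss. Outside these, the sign turned for Ciita (0.01) and H2-Oa (0.0034) with arrays centred on the median and for H2-Oa (0.0033) with renewed quantile normalization. Of the 10 class II genes, 7 were lower with arrays centred on the median and 8 with renewed quantile normalization.

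Same-numbered arrays of the groups did not deviate together: the correlations of their deviations from the group means over all probe sets were -0.208, -0.167 and -0.247, so the replicate block, which left 0 probe sets past the threshold and the median at -0.19, pairs arrays by number alone. H2-DMb1 and H2-Oa lie under the olfactory receptor level, which limits what these arrays can show for them.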
